A study of Mus musculus with 4 samples.

Results

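The genes described here are 10 heat shock and chaperone genes, chosen by name from the 32285 genes of each deposited count matrix. The stress-inducible members numbered 5: Hspa1a and Hspa1b (inducible Hsp70), Dnajb1 (an Hsp40 partner of Hsp70), Hsph1 (an Hsp110 nucleotide exchange factor) and Hsp90aa1 (the inducible cytosolic Hsp90). The constitutive members were the other 5: Hspa8 (the constitutive cytosolic Hsp70), Hsp90ab1 (the constitutive cytosolic Hsp90), Hspd1 and Hspe1 (Hsp60 and Hsp10 of the mitochondrial matrix) and Hspa5 (BiP, the Hsp70 of the endoplasmic reticulum, ER). All 10 were counted in each of the 4 libraries.

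Chaperones bind unfolded proteins and help them fold, and the Hsp70 and Hsp90 machines do so with ATP and with co-chaperones. On heat or other damage to proteins the transcription factor HSF1 binds heat shock elements, alternating GAA and TTC blocks, and raises the inducible genes, with Hspa1a and Hspa1b among the most responsive. Hspa5 belongs to a separate response, in which sensors in the ER membrane such as IRE1 and ATF6 detect unfolded protein and the transcription factors XBP1 and cleaved ATF6 raise ER chaperones. Blood stem cells make protein slowly, and their protein quality control is known to bear on self-renewal.

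The 4 libraries were of mouse bone marrow cells sorted as donor-derived (CD45.2+), lineage negative, Sca1+ and Kit+ (LSK, the compartment of blood stem cells and early progenitors), 10 weeks after transplantation. Each genotype had 1 library: a control, deletion of Mll3, deletion of Mll4, and deletion of the 2 together. Mll3 and Mll4, the proteins of Kmt2c and Kmt2d, place methyl groups on lysine 4 of histone H3 at enhancers. The alleles, the Cre driver, the hosts, the number of mice and the genotype of the control beyond its name are not given in the sources used here.

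With 1 library per genotype there was no replicate, so no test was run. Every interval below is a 95% interval for counting error only, and the variation between animals is not measured. A level is the sum of unique molecular identifiers (UMIs) of a gene over the kept cells per 1000000 UMIs of the library (CPM). A difference is the log2 ratio of the CPM to that of the control library, and all 3 comparisons share that control.

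Kept cells numbered 7274 in the control library, 6101 in the one labelled Mll3, 4793 in the one labelled Mll4 and 4748 in the one labelled Mll3/4 (here double-labelled), with medians of 14454, 15381, 21400 and 8920 UMIs per cell, and any 2 libraries shared 7 to 14 cell barcodes. Kmt2c was at 68.9 CPM in the control, at 35.3 and 42.3 in the libraries labelled for Mll3, and at 61.3 in the Mll4-labelled library. Kmt2d was at 24.6 CPM in the control (23.7 to 25.5), 21.6 with the Mll3 label, 22.6 with the Mll4 label (21.7 to 23.4) and 25.4 with the Mll3/4 label, so it was little lower with the Mll4 label and not lower with the Mll3/4 label. Counts from the 3-prime end need not see a deletion elsewhere in a gene, so the libraries are named by their labels. Kit (215 to 362 CPM), Ly6a (the gene of Sca1, 93.4 to 255) and Ptprc (CD45, 111 to 279) were present in every library. In a joint clustering that left out the members and the other chaperone lists, cells named by markers of types outside LSK (macrophage-like, mast-like, plasma-like, and innate lymphoid or T-like) made up 43.2% of the Mll4-labelled library and 0.105% to 1.70% of the others. B-lineage-like clusters held 99.4% of the double-labelled cells, in clusters 0 and 10, which came almost wholly from that library, so the type and the library cannot be told apart there. Library-wide ratios and list counts of the Mll4-labelled library were therefore also computed without the types outside LSK, meaning only the types in brackets above. B-lineage-like, granulocyte-monocyte-like, neutrophil precursor-like and dendritic-like cells were kept in those values. Granulocyte-monocyte-like cells made up 20.7% of that library and 1.54% of the control. Every kept cell falls in an antibody gate, so the gate values below include all of these types.

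The stretches just before the start sites of 4 members are shown with the elements matched in them. These elements do not divide the stress-inducible from the constitutive members. Hspa1a and Hspa1b hold a heat shock element in near-identical promoters, Hspe1 shares its element with Hspd1 on the opposite strand, and Hspa5 holds an ER stress element instead. All are from RefSeq on GRCm38.p6, 250 bases up to the base before the start site, in the direction of the gene, with the matched element in capitals. They lie at chr17:34972157-34972406 on the minus strand (Hspa1a), chr17:34959239-34959488 on the minus strand (Hspa1b), chr1:55087898-55088147 on the plus strand (Hspe1) and chr2:34771840-34772089 on the plus strand (Hspa5).
Hspa1a: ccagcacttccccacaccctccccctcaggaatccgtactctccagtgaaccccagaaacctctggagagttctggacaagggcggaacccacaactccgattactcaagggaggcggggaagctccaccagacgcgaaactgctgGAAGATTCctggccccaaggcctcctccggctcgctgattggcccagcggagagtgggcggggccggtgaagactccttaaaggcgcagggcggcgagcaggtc
Hspa1b: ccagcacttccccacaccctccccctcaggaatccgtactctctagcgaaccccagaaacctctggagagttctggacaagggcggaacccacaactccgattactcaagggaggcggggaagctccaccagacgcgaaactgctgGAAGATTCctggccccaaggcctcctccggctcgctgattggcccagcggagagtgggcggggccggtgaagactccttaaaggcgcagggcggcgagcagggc
Hspe1: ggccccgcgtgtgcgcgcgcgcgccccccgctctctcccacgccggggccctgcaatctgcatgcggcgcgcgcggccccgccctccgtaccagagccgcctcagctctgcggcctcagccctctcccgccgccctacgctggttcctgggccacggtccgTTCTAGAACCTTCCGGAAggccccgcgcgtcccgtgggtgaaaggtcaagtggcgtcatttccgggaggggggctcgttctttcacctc
Hspa5: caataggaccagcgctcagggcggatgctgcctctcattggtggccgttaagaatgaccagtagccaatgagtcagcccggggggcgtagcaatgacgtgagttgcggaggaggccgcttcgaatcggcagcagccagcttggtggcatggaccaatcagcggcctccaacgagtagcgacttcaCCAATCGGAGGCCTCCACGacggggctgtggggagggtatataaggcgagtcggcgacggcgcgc

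RefSeq windows were found for 7 of the 10 members (10 windows of 300 bases, 250 before and 50 after a start site): Hspa1a, Hspa1b, Dnajb1, Hsph1, Hspd1, Hspe1 and Hspa5. The heat shock element was searched as GAANNTTC or TTCNNGAA on both strands, matches allowed to overlap, and 15.1% of the 32851 windows of the table hold it. The longer form, 3 alternating blocks in a row, is in 0.603%. The Hspa1a and Hspa1b stretches are identical at 247 of 250 positions and each holds the shorter element, starting 104 bases before the start site. The Hspe1 window holds 3 overlapping matches that form the longer element. The nearer of the 2 Hspd1 windows reads 285 of the same bases on the other strand and so holds the same element. Both Hsph1 windows hold 3 matches, with the longer form TTCTGGAAAGTTC after the start site, and the 2 Dnajb1 windows hold no match of either form. The ER stress element (CCAAT, 9 bases of any kind, then CCACG) was matched in the Hspa5 window and in 0.119% of all windows. A match is a description of letters and shows no binding.

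Hspa1a and Hspa1b, 2 adjacent genes on chromosome 17 (34969190 to 34972156 and 34956436 to 34959238 on GRCm38) that encode nearly the same protein, were the members that differed most from the control, and they were higher in all 3 mutant-labelled libraries. Hspa1a was at 1.65 CPM in the control (1.43 to 1.90, 197 UMIs), 21.6 in the Mll3-labelled library (20.7 to 22.5), 41.5 in the Mll4-labelled library (40.4 to 42.7) and 7.66 in the double-labelled library (6.92 to 8.46). Hspa1b was at 1.68 CPM (1.46 to 1.93, 201 UMIs), 16.3 (15.5 to 17.1), 52.4 (51.2 to 53.7) and 5.79 (5.15 to 6.49) in the same order. For both genes the control was lowest, the double-labelled library next, then the Mll3-labelled and the Mll4-labelled library, with no overlap of the counting intervals. The log2 ratio to the control, in the order just given, was 3.71, 4.65 and 2.21 for Hspa1a and 3.27, 4.96 and 1.78 for Hspa1b. For the pair summed it was 3.51 (3.36 to 3.66), 4.81 (4.67 to 4.96) and 2.01 (1.83 to 2.19). Hspa1b gave 50.5% of the pair's UMIs in the control, 43.0% with the Mll3 label, 55.8% with the Mll4 label and 43.0% with the Mll3/4 label. The 2 transcripts share 56.3% and 59.6% of their words of 60 bases but none in their last 500 bases, where 3-prime reads fall, so reads there can be assigned to one gene. Hspa1l, the testis Hsp70 next to them, had 0 to 7 UMIs per library.

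The other stress-inducible members did not share this pattern. Dnajb1 was at 43.6 CPM in the control, 54.3 with the Mll3 label, 38.3 with the Mll4 label and 56.4 with the Mll3/4 label, with log2 ratios of 0.32, -0.19 and 0.37. Hsph1 was at 36.3, 37.2, 31.2 and 30.7 CPM. Its ratio of 0.04 in the Mll3-labelled library has an interval that spans 0 (-0.02 to 0.10) and was negative with other scalings, and the other 2 were -0.22 and -0.24. Hsp90aa1 was at 1338.5, 1418.5, 845.8 and 673.4 CPM, a log2 ratio of 0.08 in the Mll3-labelled library (-0.01 with TMM scaling), -0.66 in the Mll4-labelled library and -0.99 in the double-labelled library. In the 3 mutant-labelled libraries the Hspa1 pair was thus higher while Hsp90aa1 was about level in one and lower in the others. Without the types outside LSK the Mll4-labelled library had Hspa1a at 44.5 CPM, Hspa1b at 52.0, and Hsp90aa1 at 973.1, a log2 ratio of -0.47.

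**Figure D1:**
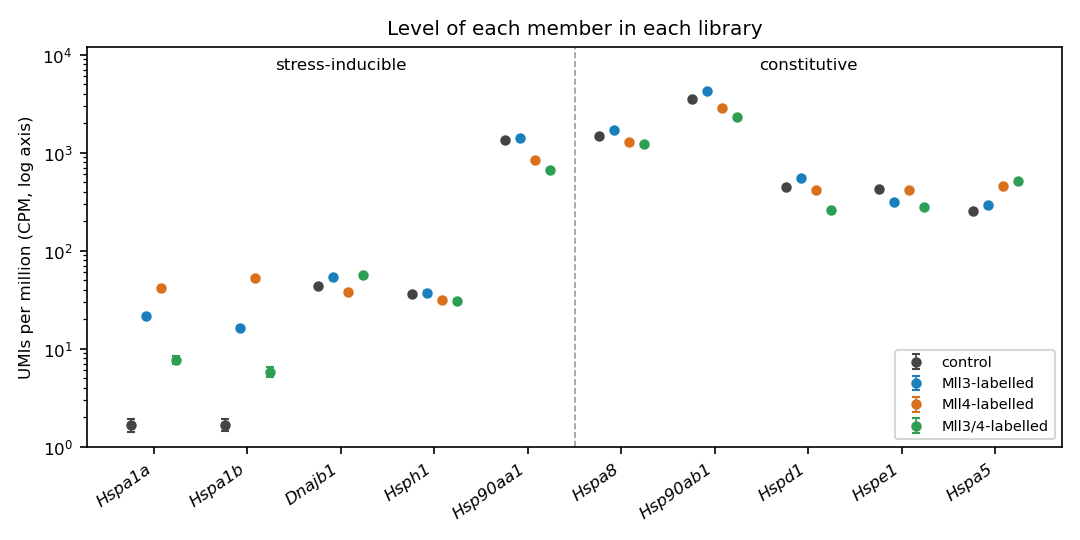
Level of each of the 10 members in each library, in CPM on a log axis, with points for the 4 libraries and bars for the 95% counting interval. The control points of Hspa1a and Hspa1b sit at 1.65 and 1.68 CPM, below all 3 mutant-labelled libraries, while Dnajb1 and Hsph1 lie between 30.7 and 56.4 CPM in all 4.

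Among the cytosolic constitutive members, Hspa8 was at 1470 CPM in the control, 1704 with the Mll3 label, 1285.5 with the Mll4 label and 1221 with the Mll3/4 label, log2 ratios of 0.21, -0.19 and -0.27. Hsp90ab1, the most abundant member in every library, was at 3529, 4305, 2845 and 2324 CPM, with ratios of 0.29, -0.31 and -0.60. Both were highest in the Mll3-labelled library and lowest in the double-labelled library. Hsp90aa1 gave 27.5% of the UMIs of the 2 Hsp90 genes in the control, 24.8% with the Mll3 label, 22.9% with the Mll4 label and 22.5% with the Mll3/4 label.

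In every library Hsp90ab1, Hspa8 and Hsp90aa1 had the 3 highest levels of the 10, in that order. In 3-prime UMI counts a transcript gives 1 tag whatever its length, so these levels need no correction for length. Hspa1a and Hspa1b were the lowest 2 in the control, where their intervals overlap, and in the Mll3-labelled and double-labelled libraries. In the Mll4-labelled library they stood above Dnajb1 and Hsph1, and Hspd1 and Hspe1 were the only neighbours in the order with overlapping intervals.

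The mitochondrial pair Hspd1 and Hspe1, whose products form the Hsp60 barrel and its Hsp10 lid, lie head to head on chromosome 1 (55077835 to 55088243 and 55088132 to 55091307), and their gene models overlap by 112 bases at the shared promoter. Hspd1 was at 451.7 CPM in the control, 549.9 with the Mll3 label, 420.5 with the Mll4 label and 260.4 with the Mll3/4 label. Hspe1 was at 430.8, 318.0, 413.9 and 278.6 CPM. In the Mll3-labelled library they differed from the control in opposite directions, with log2 ratios of 0.28 (0.27 to 0.30) for Hspd1 and -0.44 (-0.46 to -0.42) for Hspe1. In the other 2 mutant-labelled libraries both ratios had the same sign, -0.10 and -0.06 in the Mll4-labelled and -0.79 and -0.63 in the double-labelled library. Hspe1 gave 48.8% of the summed UMIs of the 2 genes in the control, 36.6% with the Mll3 label, 49.6% with the Mll4 label and 51.7% with the Mll3/4 label.

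The opposite signs held in the antibody gates of the Mll3-labelled library and in its larger clusters shared with the control. Against the control cells of the same antibody gate, Hspd1 was higher in 6 of 6 gates (log2 ratios 0.24 to 0.39) and Hspe1 lower in 6 of 6 (-0.47 to -0.32). Hspe1 was also lower in 8 of the 8 joint clusters with at least 50 cells of each library (-0.84 to -0.36), and Hspd1 had ratios of 0.08 to 0.33 in the same clusters, with the interval spanning 0 in cluster 11. Small classes were less uniform. Plasma-like cells (32 Mll3-labelled and 33 control) had both genes lower, Hspd1 at -0.68 (-1.28 to -0.10) and Hspe1 at -1.49. Innate lymphoid or T-like cells (47 and 52) had 0.65 for Hspd1 and 0.15 for Hspe1, the latter with an interval spanning 0. Dendritic-like cells (60 and 36) had 0.11 for Hspd1, with an interval spanning 0, and -0.41 for Hspe1. The annotation places a processed pseudogene of Hspe1, Hspe1-ps3 (chromosome 5, 25391608 to 25391884), inside Kmt2c (25271798 to 25498783), and its part in the Hspe1 counts was not tested.

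**Figure D2:**
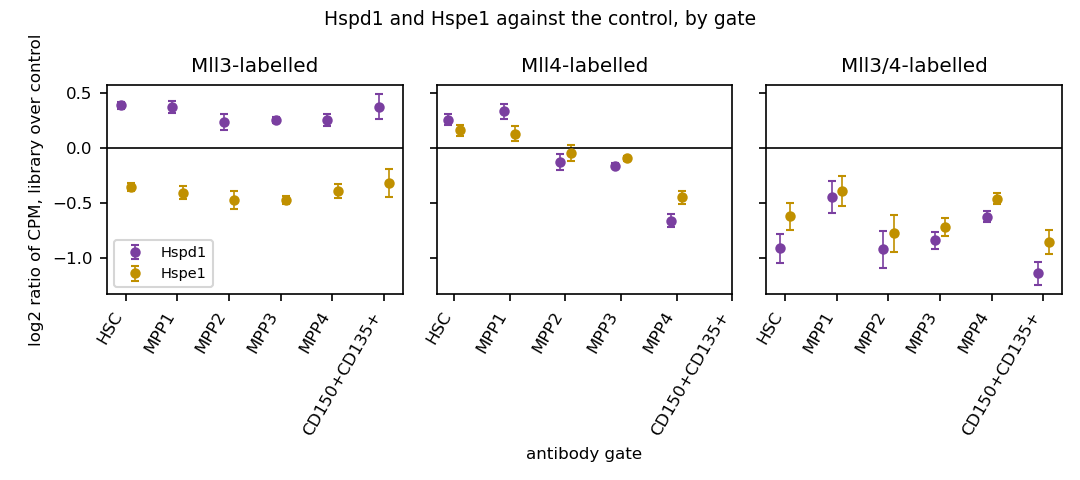
Log2 ratio to the control of Hspd1 and Hspe1 in each antibody gate with at least 100 cells, in 3 panels for the 3 mutant-labelled libraries, with bars for the 95% counting interval. In the Mll3-labelled panel all 6 Hspd1 points are above 0 and all 6 Hspe1 points below it, and in the double-labelled panel all points of both genes are below 0.

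Hspa5 (BiP) was at 257.0 CPM in the control (254.1 to 259.9), 291.0 with the Mll3 label (287.8 to 294.3), 452.6 with the Mll4 label (448.9 to 456.5) and 512.7 with the Mll3/4 label (506.5 to 519.0). It was the only constitutive member above the control in the Mll4-labelled and double-labelled libraries, with log2 ratios of 0.82 and 1.0, although Hspd1 and Hspe1 turned to 0.08 and 0.11 in the former without the types outside LSK, while the Mll3-labelled library had 0.18. Without the types outside LSK the Mll4-labelled ratio was 0.81.

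Within the Mll4-labelled library the direction for Hspa5 differed between gates. In the HSC gate (CD150+CD48-CD135-, the surface pattern of stem cells) Hspa5 was at 183.5 CPM against 256.0 in the control, a log2 ratio of -0.48 (-0.56 to -0.40). The MPP1 gate (CD150-CD48-CD135-) gave -0.41 and the MPP2 gate (CD150+CD48+CD135-) -0.03. In the MPP3 gate (CD150-CD48+CD135-, the surface pattern of myeloid-biased progenitors) it was at 518.4 against 259.2 CPM, a ratio of 1.0 (0.97 to 1.03). The MPP4 gate (CD150-CD135+, the surface pattern of lymphoid-primed progenitors) had a ratio of 0.79. The types outside LSK were not left out of these gates, and their part in the ratios was not tested. In the double-labelled library Hspa5 was higher in 6 of 6 gates, by 0.38 to 1.18. B-lineage-like clusters held 99.4% of its cells, so its gates match those of the control by surface pattern and not by type.

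By joint cluster, Hspa5 was highest in granulocyte-monocyte-like and plasma-like cells, which secrete or store much protein. In granulocyte-monocyte-like cluster 11 it was at 731.0 CPM in the control, 821.9 in the Mll3-labelled and 753.0 in the Mll4-labelled library, and the Mll4-labelled ratio within the cluster was 0.04 (-0.04 to 0.13). In cluster 8, led by the mitotic genes Ccnb2, Cdkn3 and Cenpa, that ratio was -0.39 (-0.53 to -0.26). These were the 2 clusters with at least 50 cells of both the control and the Mll4-labelled library, and Hspa5 was not higher in either. Granulocyte-monocyte-like cells made up 20.7% of the Mll4-labelled library and 1.54% of the control. With the gates weighted to their shares in the control, the Mll4-labelled ratio of Hspa5 was 0.52. Clusters 0 and 10 of the double-labelled library were at 518.4 and 503.2 CPM, and cluster 18, the B-lineage-like cells of the Mll3-labelled library, at 318.7.

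**Figure D3:**
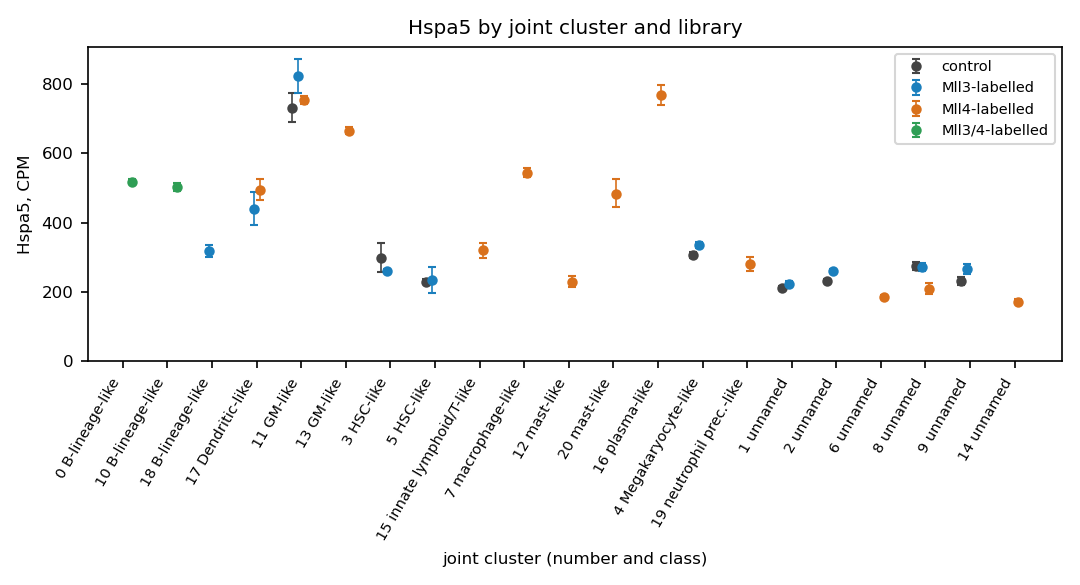
Hspa5 level in CPM in each joint cluster with at least 50 cells of a library, with 1 point per library and bars for the 95% counting interval. Granulocyte-monocyte-like cluster 11 lies at 731.0 to 821.9 CPM in 3 libraries, and the Mll4-labelled points range from 172.4 in cluster 14 to 767.0 in plasma-like cluster 16.

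Counts of members past a 1.5-fold difference were read against all genes whose mean over the library and the control reached 20 CPM. In the Mll3-labelled library 2 of 10 members were at least 1.5-fold higher (Hspa1a and Hspa1b) and 0 lower, beside 1.99% and 3.21% of 6084 genes. In its Mll4-labelled counterpart 3 were higher (Hspa1a, Hspa1b and Hspa5) and 1 lower (Hsp90aa1), beside 11.8% and 13.8% of 6046 genes. With gates weighted to the control Hspa5 (0.52) was no longer past 1.5-fold there, and without the types outside LSK Hsp90aa1 (-0.47) was not. In the double-labelled library the same 3 were higher and 4 were lower (Hsp90aa1, Hsp90ab1, Hspd1 and Hspe1), beside 13.1% and 18.7% of 5979 genes. Hspa1a and Hspa1b did not reach the 20 CPM minimum in the Mll3-labelled and double-labelled comparisons and reached it in the Mll4-labelled one through their level there, so their calls are a description. The median log2 ratio over the genes at the minimum was 0.10, -0.12 and -0.07 for the 3 libraries in turn.

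**Figure D4:**
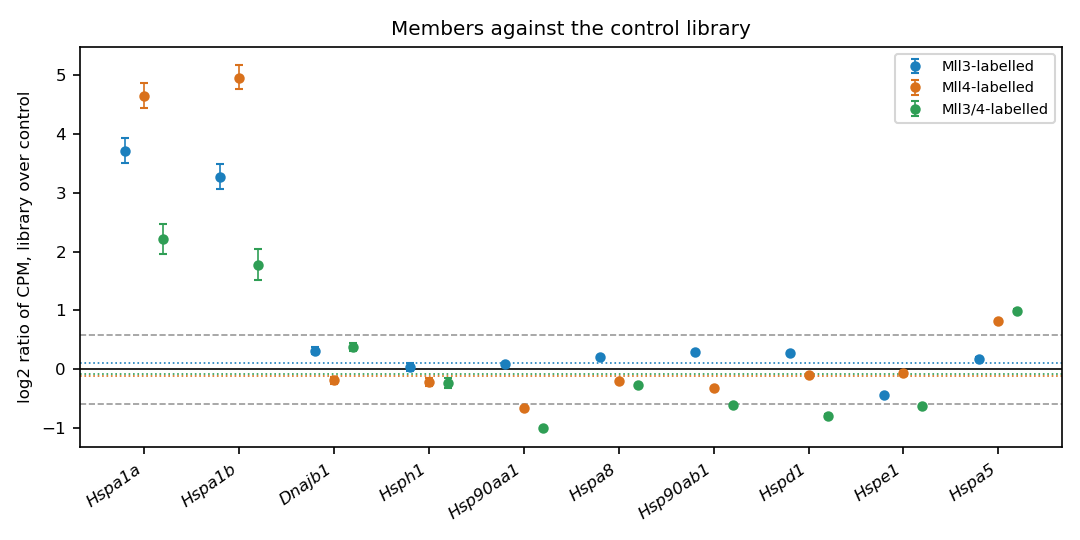
Log2 ratio to the control of each member in the 3 mutant-labelled libraries, with bars for the 95% counting interval, dashed lines at a 1.5-fold difference and dotted lines at the median of all genes tested. Hspa1a and Hspa1b lie at 1.78 to 4.96, and the other 8 members at -0.99 to 1.0.

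Summed by class, the 5 stress-inducible members were at 1422 CPM in the control, 1548 with the Mll3 label, 1009 with the Mll4 label and 774.0 with the Mll3/4 label, and the 5 constitutive members at 6138, 7168, 5418 and 4596 CPM. The log2 ratios were 0.12, -0.49 and -0.88 for the inducible sum and 0.22, -0.18 and -0.42 for the constitutive sum. The inducible share of all member UMIs was 18.8%, 17.8%, 15.7% and 14.4%. Hsp90aa1 supplied 94.2% of the inducible UMIs in the control and 83.8% to 91.6% in the others, so the sum mostly follows this gene. Without it the inducible sum was at 83.2, 129.5, 163.4 and 100.6 CPM, with ratios of 0.64, 0.97 and 0.28, and the direction turned in the Mll4-labelled and double-labelled libraries. Of the 163.4 CPM with the Mll4 label the Hspa1 pair gave 93.9, and Dnajb1 (-0.19) and Hsph1 (-0.22) were both lower there. With the Mll3/4 label the pair gave 13.4 of 100.6 CPM, with Dnajb1 higher (0.37) and Hsph1 lower (-0.24). The Hspa1 pair made up 0.235% of the inducible UMIs in the control, 2.45% with the Mll3 label, 9.31% with the Mll4 label and 1.74% with the Mll3/4 label.

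UMIs of the Hspa1 pair were found in few cells of the control. After each cell was thinned to 3000 UMIs, 48 of 7260 control cells (0.661%, exact Clopper-Pearson interval 0.488% to 0.876%) held at least 1. The share was 6.72% with the Mll3 label (409 of 6084 cells), 15.4% with the Mll4 label (716 of 4659) and 3.39% with the Mll3/4 label (160 of 4715). Without thinning the shares were 2.49%, 17.8%, 34.3% and 6.02%. No cell type here can be taken to lack these genes, so the lowest cluster of at least 100 cells is given for each library, and the part of free RNA in its share was not tested. That share was 0.0683% in cluster 5 of the control, 2.57% in cluster 3 of the Mll3-labelled library, 3.33% in cluster 15 of the Mll4-labelled library and 0.570% in cluster 10 of the double-labelled library, whose other main cluster, cluster 0, was at 3.89%. Hsp90ab1 was found in 97.7% to 99.9% of thinned cells, and Hsp90aa1 in 93.8%, 94.5%, 71.3% and 74.7%.

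The pair was higher than in the control in every antibody gate tested, with the types outside LSK not left out of the gates. In the HSC gate it was at 1.90 CPM in the control, 22.3 with the Mll3 label, 8.26 with the Mll4 label and 8.92 with the Mll3/4 label. In the MPP3 gate the values were 3.10, 66.6, 117.3 and 12.6 CPM. The MPP4 gate had the highest control level (8.05 CPM), and there the double-labelled library was at 11.4 CPM, a log2 ratio of 0.49 (0.18 to 0.82), the smallest of all gates. Over gates the ratio ran from 2.76 to 4.42 in the Mll3-labelled library and from 2.11 to 5.24 in the Mll4-labelled library (5 gates with at least 100 cells). It ran from 0.49 to 4.24 in the double-labelled library, where B-lineage-like clusters held 99.4% of the cells and the gates are not matched for type.

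**Figure D5:**
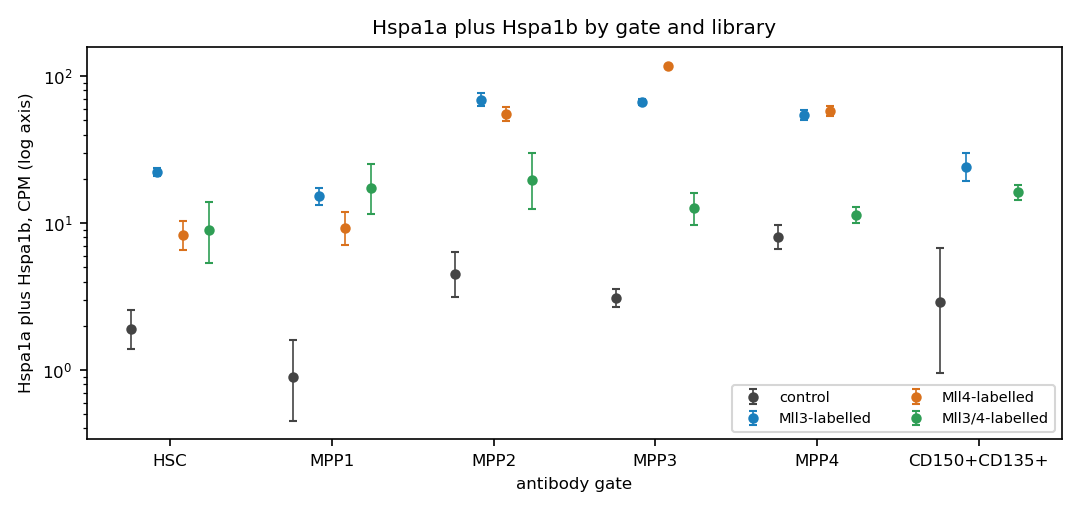
Hspa1a plus Hspa1b in CPM on a log axis, by antibody gate, with 1 point per library and bars for the 95% counting interval. In each gate the control point is lowest, from 0.897 CPM in MPP1 to 8.05 in MPP4, and no Mll4-labelled point is drawn in the CD150+CD135+ gate, where that library had fewer than 100 cells.

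Cell types differed in the pair as well. In the control it was at 0.694 CPM in HSC-like cluster 5 and at 29.8 in granulocyte-monocyte-like cluster 11. Smaller control classes were higher, at 76.1 CPM in 36 dendritic-like and 75.6 in 52 innate lymphoid or T-like cells. The Mll3-labelled library had 14.7 and 127.8 CPM in clusters 5 and 11, 357.1 in dendritic-like cluster 17 and 306.3 in 47 innate lymphoid or T-like cells. Levels in the Mll4-labelled library were 155.1 and 186.3 CPM in granulocyte-monocyte-like clusters 11 and 13, 115.8 in macrophage-like cluster 7, 114.5 in mast-like cluster 20, and 16.5 in unnamed cluster 6. Granulocyte-monocyte-like cells were thus high in 3 libraries, though not the highest type in the control and the Mll3-labelled library, and stem cell-like cells low in 2.

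Within clusters with at least 50 cells of both libraries, the difference from the control remained in the Mll3-labelled and Mll4-labelled libraries. The double-labelled library shared no such cluster with the control, so its difference could not be read within a cluster. The Mll3-labelled library was above the control in 8 of 8 shared clusters, with log2 ratios of 2.09 (cluster 11) to 4.66 (cluster 1) in the 7 clusters where the control had any UMI. In cluster 3, the cluster with the lowest share of cells with a UMI among those of at least 100 Mll3-labelled cells, the control had 0 UMIs in 66 cells, and the Mll3-labelled level of 11.6 CPM was at least 2.70-fold higher than the 4.29 CPM that 3 UMIs over those cells would give. The Mll4-labelled library was above the control in both shared clusters, by 2.37 in cluster 11 and 4.51 in cluster 8. In cluster 8 the Mll3-labelled and Mll4-labelled levels were 30.5 and 30.1 CPM against 1.26 in the control. One class went the other way: innate lymphoid or T-like cells had 13.8 CPM in the Mll4-labelled library and 75.6 in the control. The 342 Mll4-labelled cells of that class were in cluster 15, the lowest of that library by share of cells with a UMI, while the control had 46 in cluster 15 and 6 in cluster 21.

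Immediate early genes, which respond within minutes to handling of cells and to growth signals, were read beside the pair. Of 8 such genes at the expression minimum, 7 were at least 1.5-fold higher in the Mll3-labelled library, led by Fosb (33.7 to 139.0 CPM, log2 ratio 2.05) and Egr1 (27.5 to 89.4 CPM, 1.70), with Junb (0.54) and Ier2 (0.74) lowest. Of all genes 1.99% were higher there. Of 7 at the minimum in the Mll4-labelled library 0 were higher and 1 lower, with Fos (0.53) and Egr1 (0.41) highest and Zfp36 (-0.18) and Ier2 (-1.10) lowest, beside 11.8% and 13.8% of all genes, and 2 were lower without the types outside LSK. In the double-labelled library 1 of 8 was higher (Egr1, 0.87) and 4 lower, with Junb at -1.43 and Fos at -1.49, and Dusp1 (0.42) was second highest, beside 13.1% and 18.7% of all genes. Below the minimum in the Mll4-labelled comparison were Atf3 (0.302 CPM in the control and 4.76 with the Mll4 label), Nr4a1 (1.81 and 14.06) and Dusp1 (19.3 and 18.3). The list summed to 557.0 CPM in the control and 1128, 534.2 and 437.5 CPM in the 3 others. The pair was thus higher in all 3 mutant-labelled libraries and the immediate early sum in 1. The part of cell handling in the level of the pair was not tested.

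Cells with a UMI of the pair were set beside cells without one, within each library. No intervals were computed for these levels, and only 48 control cells held a UMI, so no direction is read in the control. Dnajb1 was at 38.6 in the cells with a UMI against 43.6 CPM in the control. It was higher in the cells with a UMI in the other 3 libraries, at 62.4 against 53.7 with the Mll3 label, 45.3 against 36.7 with the Mll4 label and 73.0 against 56.0 with the Mll3/4 label. Hsph1 was at 36.7 against 36.3, 47.1 against 36.4, 37.4 against 29.8 and 34.8 against 30.7 CPM. Hspa5 was at 376.8 against 256.0, 364.8 against 285.1, 649.2 against 409.1 and 584.3 against 510.4 CPM. The immediate early sum was 496.6 against 557.5 CPM in the control, and 1185 against 1123, 653.8 against 504.2 and 666.5 against 429.9 in the others. Cells with a UMI were deeper in 3 libraries (medians of 21588 against 14438, 17830 against 15266 and 27830 against 21703 UMIs) and shallower in the double-labelled library (7393 against 9033). Median mitochondrial shares were 3.88% to 4.42% with and 3.83% to 4.80% without. Cells with and without a UMI were not matched for type. Granulocyte-monocyte-like cells of the Mll4-labelled library had Hspa5 at 701.7 and the pair at 173.4 CPM, and its unnamed cells 182.2 and 18.9. The part of cell type in these differences was not tested.

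Hspa1a and Hspa1b were found together in 5 thinned cells of the control, 51 of the Mll3-labelled, 127 of the Mll4-labelled and 9 of the double-labelled library. The product of their 2 shares would give 0.0964, 8.67, 36.9 and 1.49 cells. The cells counted are of several types that differ in the pair, so the excess is a description. Hspa1a and Dnajb1 were found together in 7, 41, 44 and 19 cells, beside products of 2.96, 34.2, 38.1 and 15.03. Hspa1b and Hsph1 were found together in 3, 33, 45 and 10 cells, beside 2.59, 20.1, 34.95 and 5.20.

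Dividing cells, taken as those with at least 2 UMIs of 16 G2 and mitosis genes after thinning, were compared with cells that had none. Of those 16 genes, 0, 1 and 4 were at least 1.5-fold higher than in the control library in the Mll3-labelled, Mll4-labelled and double-labelled libraries, and 0 were lower, beside 1.99%, 11.8% and 13.1% of all genes higher. Without the types outside LSK 4 were higher in the Mll4-labelled library, with a median log2 ratio of 0.21 in place of -0.03. Hsp90aa1 was higher in dividing cells of every library, at 1512 against 1080.5 CPM in the control, 1607 against 1122 with the Mll3 label, 996.3 against 554.0 with the Mll4 label and 923.1 against 472.4 with the Mll3/4 label. Its log2 ratios were 0.48, 0.52, 0.85 and 0.97. Hspa8 was higher too, by 0.20, 0.29, 0.35 and 0.26. The Hspa1 pair was higher in dividing cells of the control (4.36 against 2.06 CPM), the Mll3-labelled (46.2 against 27.3) and the Mll4-labelled library (107.1 against 68.6), and lower in those of the double-labelled library (7.54 against 18.3, a ratio of -1.28 with an interval of -1.56 to -1.01). Hsp90ab1, Hspe1 and Hspa5 also had negative ratios in the double-labelled library, of -0.08, -0.22 and -0.15, and positive ones in the other 3. Dividing and other cells were not matched for type, and the part of type was not tested. In the Mll4-labelled library Hsp90aa1 was at 282.5 CPM in macrophage-like and 883.6 in granulocyte-monocyte-like cells. Clusters 0 and 10 of the double-labelled library had Hsp90aa1 at 542.7 and 1013 CPM and the pair at 16.6 and 4.57.

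The UMIs of the abundant members were spread over most cells. In thinned control cells the 10% of cells with most Hsp90ab1 UMIs held 17.4% of them, and the same share was 24.0% for Hsp90aa1, 21.8% for Hspa8 and 40.5% for Hspa5. This share depends on the mean as well as on the spread.

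Other chaperone genes were counted by list, beside the shares of all genes past 1.5-fold: 1.99% higher and 3.21% lower in the Mll3-labelled, 11.8% and 13.8% in the Mll4-labelled, and 13.1% and 18.7% in the double-labelled library. Of 17 HSF1 and cytosolic co-chaperone genes at the minimum, 0 passed 1.5-fold in the Mll3-labelled library (median log2 ratio 0.17, beside 0.10 for all genes), where Hspa4l (0.36) and Ahsa1 (0.31) were highest and Hspbp1 (-0.12) and Chordc1 (-0.15) lowest. In the Mll4-labelled library 1 was higher (St13, an Hsp70 co-chaperone, at 0.93) and 1 lower (Hspbp1, an Hsp70 nucleotide exchange factor, at -1.29), with a median of -0.26 beside -0.12 for all genes, and 4 of the 17 were above 0. In the double-labelled library 0 were higher and 2 lower (Hspbp1 at -2.14 and Fkbp4 at -0.80), with a median of -0.32 beside -0.07 for all genes, and with Dnaja1 (0.56) and Chordc1 (0.31) highest. Hsf1 itself was at 22.4, 24.2, 18.8 and 18.1 CPM. The list's 3 genes below the minimum include 2 further targets of HSF1: Bag3 was at 6.48, 9.08, 7.58 and 6.46 CPM and Hspb1 at 0.394, 1.46, 1.22 and 0.551.

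The 8 subunits of TRiC, the cytosolic chaperonin that folds actin and tubulin, lay on one side of 0 in each library. All 8 were above 0 in the Mll3-labelled library (Tcp1 0.20 to Cct8 0.37), with 0 past 1.5-fold. All 8 were below 0 in the Mll4-labelled library (Cct3 -0.49 to Tcp1 -0.17), with 0 past it, and in the double-labelled library (Cct8 -0.69 to Cct7 -0.34), with 4 past it, beside 13.8% and 18.7% of all genes lower. The medians were 0.28, -0.31 and -0.50. Without the types outside LSK the Mll4-labelled median was -0.16, beside -0.12 for all genes. Of 8 other mitochondrial chaperones and proteases, 8 were above 0 in the Mll3-labelled library, from Hscb (0.07, below the median of all genes) and Clpp (0.13) to Hspa9 (0.29) and Grpel1 (0.35). Of the 8, 1 was past 1.5-fold lower in the Mll4-labelled library, Hscb (-0.91), an iron-sulphur cluster co-chaperone. In the double-labelled library 5 of 8 were, led by Hscb (-1.57) and Trap1 (-0.98), the mitochondrial Hsp90. The medians of the mitochondrial list were 0.18, -0.30 and -0.64, and -0.17 in the Mll4-labelled library without the types outside LSK.

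ER chaperones and genes of the unfolded protein response lay above 0 in most cases, as Hspa5 did. Among 18 genes in the Mll3-labelled library 0 passed 1.5-fold, with Sdf2l1 (0.57) and Dnajb11 (0.41) highest and Ddit3 (-0.05) and P4hb (-0.10) lowest. The Mll4-labelled library had 9 of 17 at the minimum at least 1.5-fold higher and 0 lower, beside 11.8% and 13.8% of all genes, with a median of 0.60. Xbp1, the transcription factor of this response, went from 41.6 to 125.8 CPM (1.60) and Pdia4, a disulphide isomerase, from 46.8 to 117.2 CPM (1.32), and Dnajc3 (0.22) and Atf4 (0.10) were lowest. Without the types outside LSK 8 of 17 were higher, with a median of 0.56. Granulocyte-monocyte-like cells, 20.7% of that library and 1.54% of the control, were kept in these values. The values of this list are library-wide, and the part of cell type in them was not tested. In the double-labelled library 4 of 18 were higher and 0 lower, beside 13.1% and 18.7% of all genes, with a median of 0.28, led by Sdf2l1 (0.88) and Hsp90b1 (0.77), the Hsp90 of the ER, while Calr (-0.41) and Dnajb9 (-0.51) were lowest.

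The genes most like the members in pattern were sought over 23 profiles of a library and a gate, among 5795 other genes, by Pearson correlation of log2 CPM and with no test. The profiles share libraries and depth. The stress-inducible sum was closest to Gar1 (0.98), G3bp1, Fbl, Gtpbp4 and Nup37 (0.97), and the constitutive sum to Naa10 (0.98), Fbl, Gemin6, Bzw2 and Tomm40 (0.97). For the Hspa1 pair, examined after its values were seen, the correlations were lower, with Akr1a1 (0.81), Tuba1c, Lypla1, Klf2 and Dgkd (0.75) closest.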

How the data were processed

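The deposited values were raw UMI counts per gene and cell barcode, and antibody counts for 6 surface proteins. Per the file headers they were written by Cell Ranger 6.1.1, and the submitters' processing notes name the build mm10. Per the labels, each genotype had 1 library of 3-prime droplet chemistry.

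A barcode was kept with 1000 or more genes and no more than 10% mitochondrial UMIs (50792614 to 120700343 UMIs per library), with doublet removal as an alternative because Scrublet called 0 or 1 cell in 3 libraries. UMIs were summed per library, gate or cluster. Log2 ratios add 0.5 UMIs to each sum. Intervals are exact Poisson, conditional binomial or Clopper-Pearson. The conditional binomial interval was checked on simulated Poisson sums of genes at 20 CPM or more in the control, without Hspa1a and Hspa1b. Poisson sums follow the model of the interval, so the check cannot show its coverage where cells vary more than that. Gates used centred log ratios of CD150, CD48 and CD135 counts with 1 threshold each for all libraries. Clusters were made with scanpy 1.11.5 (2000 variable genes, 30 components, 15 neighbours, Leiden resolution 0.6) and named from at least 3 markers raised 2-fold. TMM factors came from edgeR 4.0.16.

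Members and lists were chosen with earlier results of these data known. Named are all 10 members, per list the 2 highest and 2 lowest ratios, and the 5 genes most like each sum. Genes under the 20 CPM minimum are given to account for a list. Coordinates are from GENCODE M21 on GRCm38, in which 32235 of 32285 identifiers were found. Alternatives were other filters, scalings, weights, minimums and folds, and leaving out types outside LSK.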

Additional observations from a re-analysis of the deposited data

Results flagged for a closer look

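In the Mll4-labelled library 4 members had opposite signs in different gates, with counting intervals clear of 0. Hspd1 was higher than in the control in the MPP1 gate (log2 ratio 0.34) and lower in the MPP4 gate (-0.66). Its partner Hspe1 was higher in the HSC gate (0.16) and lower in the MPP4 gate (-0.45). Hspa8 was higher in the MPP1 gate (0.0835) and lower in the MPP4 gate (-0.34). Hspa5 was higher in the MPP3 gate (1.0) and lower in the HSC gate (-0.48). The difference between gates was not tested, since each gate has 1 library per genotype. The types outside LSK were not left out of these gates.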

How the results depend on the processing

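Values are given in the order Mll3-labelled, Mll4-labelled, double-labelled. The inducible sum (0.12, -0.49 and -0.88) kept its direction under each alternative run except the last named here: 0.0248, -0.46 and -0.80 with TMM scaling, 0.0257, -0.45 and -0.77 with median-of-ratios scaling, 0.0389, -0.55 and -0.94 with totals that leave out mitochondrial and ribosomal protein genes, and 0.16, -0.48 and -0.81 with gates weighted to the control. Equal weight per cell gave -0.74 and -0.95 in the last 2 libraries, and in the Mll4-labelled library the stricter cell filter gave -0.57 and leaving out types outside LSK -0.33. Without Hsp90aa1, an alternative chosen after seeing the data, it was 0.64, 0.97 and 0.28, of the opposite sign in the last 2.

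The constitutive sum (0.22, -0.18 and -0.42) was 0.13, -0.14 and -0.34 with TMM scaling, 0.13, -0.13 and -0.31 with median-of-ratios scaling, 0.14, -0.23 and -0.48 with those totals, 0.25, -0.17 and -0.41 with weighted gates, and 0.23, -0.37 and -0.47 with equal weight per cell. The stricter filter gave -0.22 and -0.44 in the last 2, and in the Mll4-labelled library doublet removal gave -0.19 and leaving out types outside LSK -0.0612.

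Of 270 single-member ratios under alternatives, 8 had the other sign and 6 crossed 1.5-fold. The signs that turned were of Hsph1 and Hsp90aa1 in the Mll3-labelled library (other scalings and totals) and of Hspd1 (0.08) and Hspe1 (0.11) in the Mll4-labelled library without types outside LSK. Hspa5 in the Mll4-labelled library was under 1.5-fold (0.52) with weighted gates. Members at least 1.5-fold lower in the double-labelled library numbered 4, but 2 with TMM or median-of-ratios scaling and 0 at 2-fold. In the Mll4-labelled library they numbered 1, but 0 at 2-fold and 0 without types outside LSK. TMM scaling moved the median of all genes from 0.10 to 0.01 in the Mll3-labelled library, so ratios near 0.1 there depend on the scaling. The cause was not tested. At 197 control UMIs of Hspa1a, depth limits the gate and cluster ratios of the pair. No paired analysis was possible because each genotype had 1 library.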
